A study of Populus trichocarpa with 12 samples.

Results

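Mild drought was examined in the young wood of Populus trichocarpa (black cottonwood) by setting 4 RNA-seq libraries taken after 5 days without watering against 4 libraries taken on day 0 from irrigated trees, 8 of the 12 libraries of the series. The libraries were chosen by their titles, and every gene of the count table was used: 26943 of 41335 gene identifiers passed the filter on low counts. Trees had grown for 3 months in soil in a greenhouse, and differentiating xylem was scraped from debarked stems. The labels give 74% water in soil and 80.6% in xylem on day 0, and 33% and 75.3% on day 5, as 1 value per day. They do not say whether the libraries of a day came from separate trees or whether trees were pooled. P-values therefore measure the spread between libraries only. The other libraries, from day 7 (29% water in soil and 74.3% in xylem), were fitted together with these 8. Their spread enters the p-values of that fit too. Irrigated trees harvested on day 5 were not analysed here, so drought and day of harvest cannot be told apart.

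Differentiating xylem is the zone inside the cambium where cells enlarge, lay down a secondary wall of cellulose, xylan and lignin, and die to become vessels and fibres. Lignin is polymerised from monolignols, which are made from phenylalanine by a chain of enzymes that opens with phenylalanine ammonia-lyase. Cellulose of the secondary wall is spun by complexes of the synthases CesA4, CesA7 and CesA8, and xylan synthesis needs glycosyltransferases such as GAUT12 and the GT43 family. NAC transcription factors of the WND group switch this programme on, and MYB factors act directly below them. The count table and the RefSeq gene list used here pair no identifier with a name. Genes are therefore described only for 36 identifiers known by published poplar designations, which the files do not give: 24 enzymes of monolignol and cellulose synthesis, 4 of xylan synthesis and 8 NAC and MYB regulators. All 36 were tested, and none had counts identical to those of another gene.

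Total counts lay between 9.35 and 16.0 M per library on day 0 and between 12.9 and 19.2 M on day 5. Spearman correlations over tested genes were 0.94 to 0.984 between day 0 libraries, 0.94 to 0.974 between day 5 libraries and 0.698 to 0.807 across the days. Values below are CPM (counts per 1 M counts of the library, TMM-scaled), and a gene is called when edgeR's quasi-likelihood test gives a Benjamini-Hochberg adjusted p under 0.05 over all tested genes. CPM is not corrected for gene length, so the level of a gene is compared between libraries only. Sums and ratios of genes are likewise compared between libraries only, and genes with most counts weigh most in a sum. The 5 secondary wall cellulose synthase genes, which mark xylem that is building walls, had counts in every library, with a summed level of 2762, 10182, 5318 and 3797 CPM in day 0 replicates 1 to 4. Day 0 replicate 2 was the highest of its day in 23 of the 24 enzyme genes.

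Of the 36 wood genes, 27 were lower on day 5, none was higher and 9 were not called, where 28.8% of all tested genes were lower and 29.9% higher. The 4 libraries of each day did not overlap in 24 of the 36, all in the lower direction, against 27.0% of all tested genes that were lower and 28.7% that were higher without overlap. All 36 had a negative log2 fold change, as had 50.4% of all tested genes. The 36 were chosen with earlier results of these data known, so these shares are a description and not a test. The median log2 fold change was -1.81 over the 24 enzymes, -2.71 over the xylan genes and -2.18 over the regulators, and -0.01 over all tested genes. The xylan median was -2.09 without day 0 replicate 2. RNA was taken from bulk tissue, so fewer cells building walls and less of these transcripts per cell cannot be told apart.

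**Figure D1:**
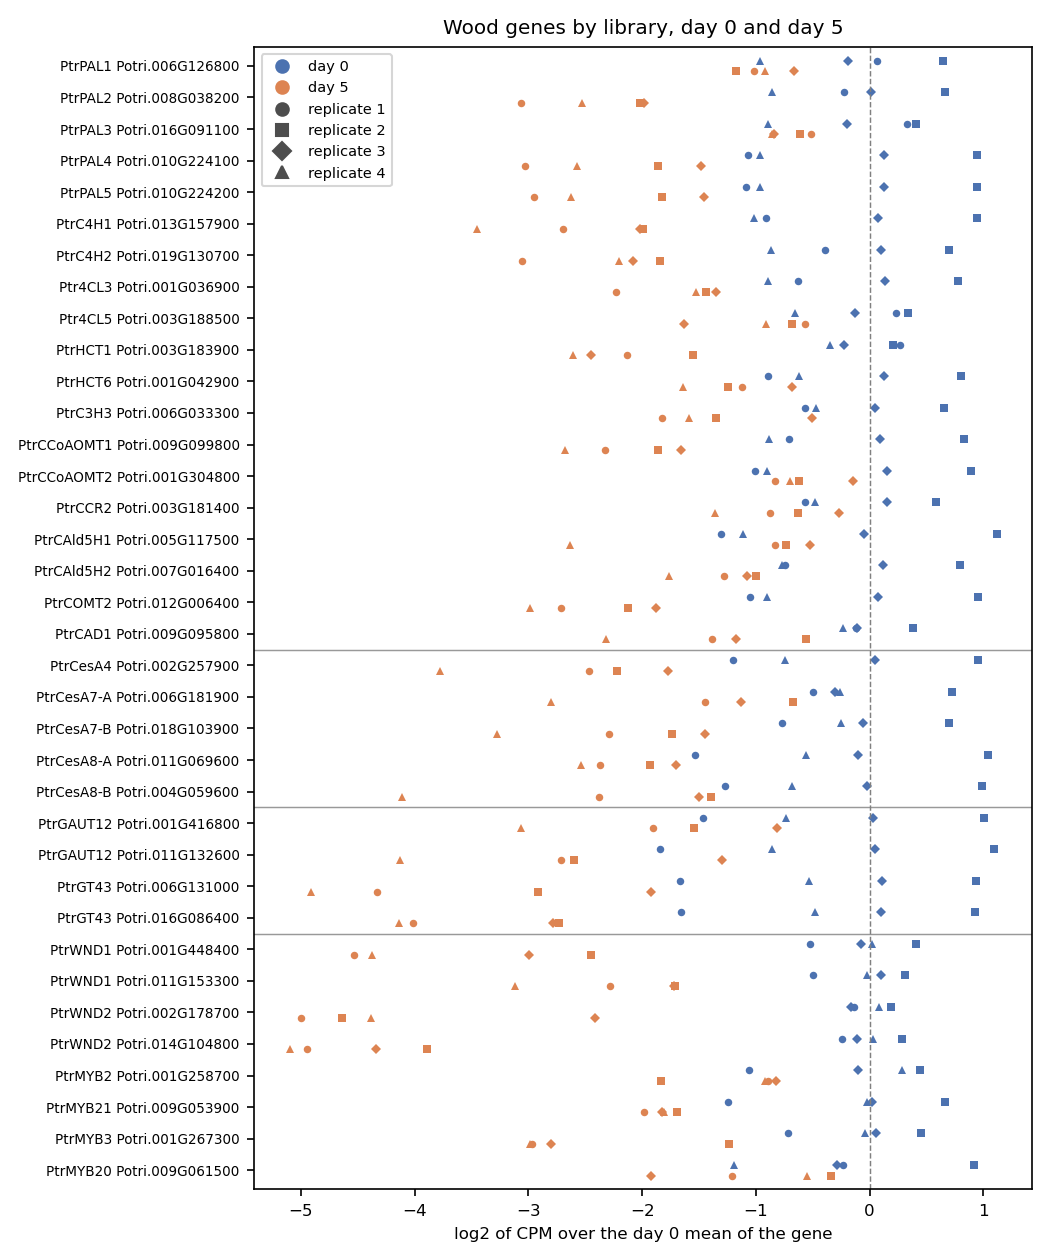
Each row is 1 of the 36 wood genes, in the order monolignol enzymes, cellulose synthases, xylan synthesis and regulators, and each point is 1 library (blue day 0, orange day 5, symbol by replicate) on a log2 scale relative to the gene's day 0 mean. Day 0 replicate 2 (blue squares) lies to the right in most rows, and the PtrWND2 genes, of the NAC group, show the widest gap between days.

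All 4 listed NAC regulators, the PtrWND1 and PtrWND2 genes, fell, with a median log2 fold change of -3.50. The list holds no other NAC gene, so the rest of the WND group was not examined. PtrWND2 genes belong to the switches of secondary wall formation. Potri.014G104800 of this group stood at 24.5, 35.4, 26.8 and 29.6 CPM in day 0 replicates 1 to 4 and at 0.942, 1.96, 1.43 and 0.846 CPM on day 5. Every day 5 library was far below every day 0 library, and the mean dropped from 29.0 CPM ± 4.71 (SD, n = 4) to 1.30 CPM ± 0.513. Its log2 fold change was -4.45 (edgeR: SE 0.67, adjusted p = 0.000215), or 21.9-fold lower. The other PtrWND2 gene, Potri.002G178700, had 20.5, 25.7, 20.2 and 24 CPM on day 0 and 0.706, 0.905, 4.24 and 1.08 CPM on day 5, where replicate 3 was the highest. It fell by 3.69 on the log2 scale (edgeR: SE 0.53, adjusted p = 0.000164), and the value was -4.64 without day 5 replicate 3.

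PtrWND1 genes, the other listed pair of these wood switches, fell as well. Potri.001G448400 held 91.3, 174, 124 and 133 CPM on day 0 and 5.65, 24, 16.4 and 6.31 CPM on day 5, with no overlap. The log2 fold change was -3.31 (edgeR: SE 0.85, adjusted p = 0.00588). Its partner Potri.011G153300 went from 117, 205, 177 and 162 CPM to 34.0, 50.5, 50.1 and 19 CPM, again with no overlap. This smaller drop had a log2 fold change of -2.10 (edgeR: SE 0.32, adjusted p = 0.000226). The ratio of the first to the second gene was 0.703 to 0.848 on day 0 and 0.166 to 0.476 on day 5. All 4 NAC genes kept their call with any 1 of the 8 libraries left out, with edgeR adjusted p of at most 0.02.

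Of the 4 MYB regulators, 2 fell and 2 were not called. PtrMYB2, PtrMYB3, PtrMYB20 and PtrMYB21 are counterparts of Arabidopsis MYB46 and MYB83, which act below the NAC switches. PtrMYB21 (Potri.009G053900) held 14.3, 53.6, 34.3 and 33.4 CPM on day 0 and 8.56, 10.5, 9.59 and 9.69 CPM on day 5. The day 5 libraries lay close together and below all of day 0, with a log2 fold change of -1.82 (edgeR: SE 0.50, adjusted p = 0.0085). PtrMYB3 (Potri.001G267300) went from 6.33, 14.2, 10.8 and 10.1 CPM to 1.33, 4.42, 1.49 and 1.31 CPM, a log2 fold change of -2.25 (edgeR: SE 0.63, adjusted p = 0.00957). Day 5 replicate 2 was the highest there, and the value was -2.90 without it.

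PtrMYB2 (Potri.001G258700) had 2.59 to 7.34 CPM on day 0 and 1.51 to 3.05 CPM on day 5, with overlap between days. Its log2 fold change of -1.07 (edgeR: SE 0.46, adjusted p = 0.0637) did not pass the test, although it did without day 0 replicate 1, with DESeq2, with limma-voom, with upper-quartile scaling and with the 8 libraries alone. PtrMYB20 (Potri.009G061500) had 1.03 to 4.47 CPM on day 0 and 0.623 to 1.86 CPM on day 5 and was not called (log2 fold change -0.88, edgeR: SE 0.68, adjusted p = 0.288).

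**Figure D2:**
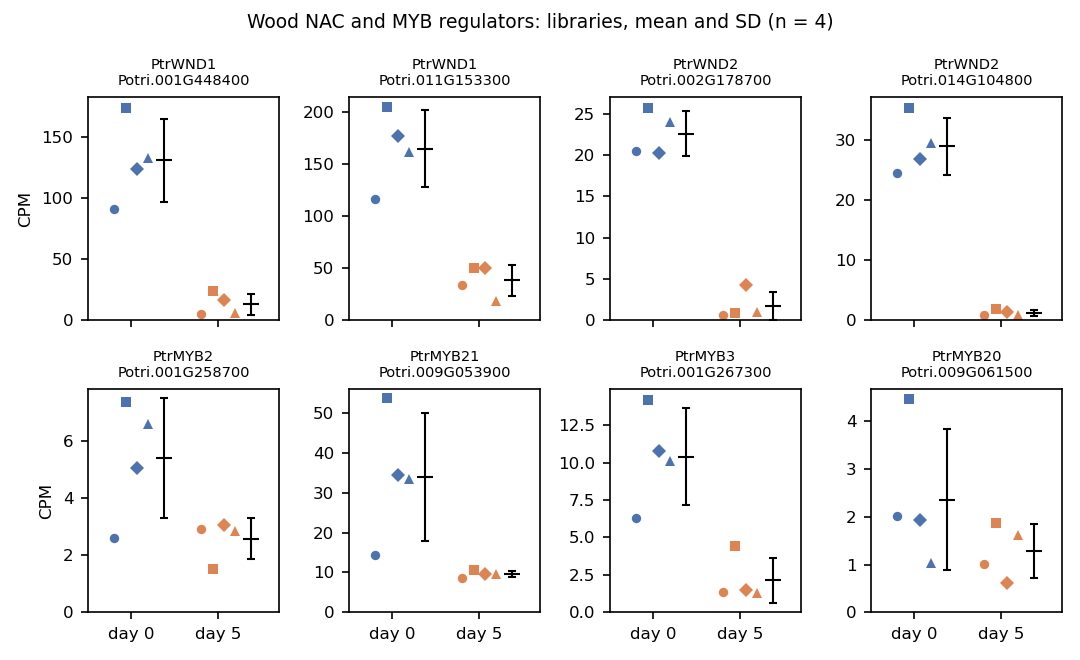
CPM of the 8 regulators in each library (circle, square, diamond and triangle for replicates 1 to 4; blue day 0, orange day 5), with the mean and SD of each day (n = 4) in black. In the upper row all 4 NAC genes are lower in every day 5 library, whereas PtrMYB2 and PtrMYB20 overlap between the days.

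Monolignol synthesis opens with phenylalanine ammonia-lyase (PtrPAL), which deaminates phenylalanine. PtrPAL2 (Potri.008G038200) stood at 703, 1296, 829.9 and 454 CPM on day 0 and at 98.4, 203, 208 and 142 CPM on day 5. The days did not overlap, and the log2 fold change was -2.33 (edgeR: SE 0.46, adjusted p = 0.00131). PtrPAL4 (Potri.010G224100) and PtrPAL5 (Potri.010G224200) carry neighbouring identifiers, and reads they share cannot be told apart from separate transcripts. PtrPAL4 had 351 to 1414 CPM on day 0 and 90.0 to 264 CPM on day 5 (log2 change -2.11, edgeR adjusted p = 0.00847). PtrPAL5 had 182 to 746 CPM and 50.2 to 141 CPM (log2 change -2.09, edgeR adjusted p = 0.0112), and neither gene overlapped between days. PtrPAL1 (Potri.006G126800) and PtrPAL3 (Potri.016G091100) behaved differently in size: they had log2 fold changes of -0.93 (edgeR: SE 0.33, adjusted p = 0.0314) and -0.70 (edgeR: SE 0.44, adjusted p = 0.188), and their days overlapped. The PtrPAL1 call was lost without day 0 replicate 1 or 2 or day 5 replicate 1, 2 or 4, with adjusted p up to 0.107, and with limma-voom (adjusted p = 0.0502). No test compared these genes with PtrPAL2.

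The next steps hydroxylate cinnamate (PtrC4H), attach coenzyme A (Ptr4CL) and carry the shikimate ester through the hydroxylation by PtrC3H (PtrHCT). PtrC4H1 (Potri.013G157900) held 603, 2190.4, 1193 and 563 CPM on day 0 and 175, 286, 280.4 and 104 CPM on day 5. Its pair PtrC4H2 (Potri.019G130700) had 659 to 1949 CPM on day 0 and 145 to 335 CPM on day 5. All day 5 libraries were lower in both genes. PtrC4H1 had a log2 fold change of -2.43 (edgeR: SE 0.57, adjusted p = 0.00363), and PtrC4H2 one of -2.23 (edgeR: SE 0.41, adjusted p = 0.000736). PtrHCT1 (Potri.003G183900) had a narrow spread on day 0, at 2370.3, 2259, 1686 and 1543 CPM. It was down to 449, 669, 359.8 and 323 CPM on day 5, or a log2 change of -2.12 (edgeR: SE 0.43, adjusted p = 0.00141) that stayed between -2.38 and -1.99 with any 1 library left out. Ptr4CL3 (Potri.001G036900) fell by 1.6 on the log2 scale (edgeR: SE 0.48, adjusted p = 0.013) without overlap.

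Smaller falls were seen in other genes of these steps. PtrHCT6 (Potri.001G042900) fell by 1.14 (edgeR: SE 0.33, adjusted p = 0.0118) and PtrC3H3 (Potri.006G033300) by 1.22 on the log2 scale (edgeR: SE 0.34, adjusted p = 0.00948), with overlap in both. Ptr4CL5 (Potri.003G188500) fell by 0.89 (edgeR: SE 0.30, adjusted p = 0.0245), and this call was lost without day 0 replicate 1 or 2 or day 5 replicate 3 or 4, with adjusted p up to 0.0677.

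Caffeoyl-CoA methyltransferases, which add a methyl group on the way to guaiacyl lignin, split within the family. PtrCCoAOMT1 (Potri.009G099800) held 677, 1966, 1174 and 598 CPM on day 0 and 219.5, 304, 349.7 and 172 CPM on day 5. It fell by 2.08 on the log2 scale (edgeR: SE 0.41, adjusted p = 0.00125) without overlap. PtrCCoAOMT2 (Potri.001G304800) held 541, 2018, 1214 and 581 CPM on day 0 and 612, 709, 983 and 669.8 CPM on day 5. All its day 5 libraries lay within the range of day 0, and its log2 fold change of -0.55 (edgeR: SE 0.54, adjusted p = 0.4) was not called. The ratio of the first to the second gene was 0.967 to 1.25 on day 0 and 0.256 to 0.429 on day 5. This ratio does not depend on library scaling, and its values did not overlap between days.

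The same ratio was taken in all 11 families with 2 listed genes, a step chosen after the values were seen. It overlapped between days in 7 of them and did not in 4: PtrCCoAOMT, PtrWND1, PtrCesA7 and PtrGAUT12. This count is a description with no test, the same was not computed for other gene pairs, and nothing particular to these families is read from it. In the PtrCesA7 pair the ratio of Potri.006G181900 to Potri.018G103900 was 1.02 to 1.46 on day 0 and 1.5 to 2.51 on day 5. In the PtrGAUT12 pair the ratio of Potri.001G416800 to Potri.011G132600 was 11.3 to 15.5 on day 0 and 16.7 to 25.1 on day 5.

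Late steps reduce, hydroxylate and methylate the monolignols. PtrCOMT2 (Potri.012G006400), a methyltransferase of syringyl lignin, held 1264, 5081, 2757 and 1404 CPM on day 0 and 400.4, 601, 714 and 331 CPM on day 5. Its days did not overlap although the day 0 libraries differed several-fold, and it fell by 2.36 on the log2 scale (edgeR: SE 0.46, adjusted p = 0.00118). PtrCAld5H2 (Potri.007G016400), a hydroxylase of the same branch, went from 564 to 1668 CPM on day 0 to between 284 and 483 CPM on day 5. Its log2 fold change was -1.25 (edgeR: SE 0.39, adjusted p = 0.0161), and the call was lost without day 0 replicate 2 (adjusted p = 0.0563).

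The remaining late genes gave weaker values. PtrCAD1 (Potri.009G095800), which makes the final alcohols, had 1694 to 2596 CPM on day 0 and 399.6 to 1353 CPM on day 5 without overlap. Its log2 fold change of -1.23 (edgeR: SE 0.48, adjusted p = 0.0449) was near the threshold, and the call was lost with any 1 library left out other than day 5 replicate 2, with adjusted p up to 0.112, and with no filter on low counts (adjusted p = 0.0546). PtrCAld5H1 (Potri.005G117500) had a log2 fold change of -0.98 (edgeR: SE 0.59, adjusted p = 0.172), and -0.26 without day 0 replicate 2. PtrCCR2 (Potri.003G181400), the reductase that opens the monolignol-specific branch, had 304 to 675 CPM on day 0 and 176 to 373 CPM on day 5. It was not called (log2 fold change -0.73, edgeR: SE 0.30, adjusted p = 0.0568), but was without day 0 replicate 1 or 4 or day 5 replicate 3, with DESeq2 and with upper-quartile scaling.

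**Figure D3:**
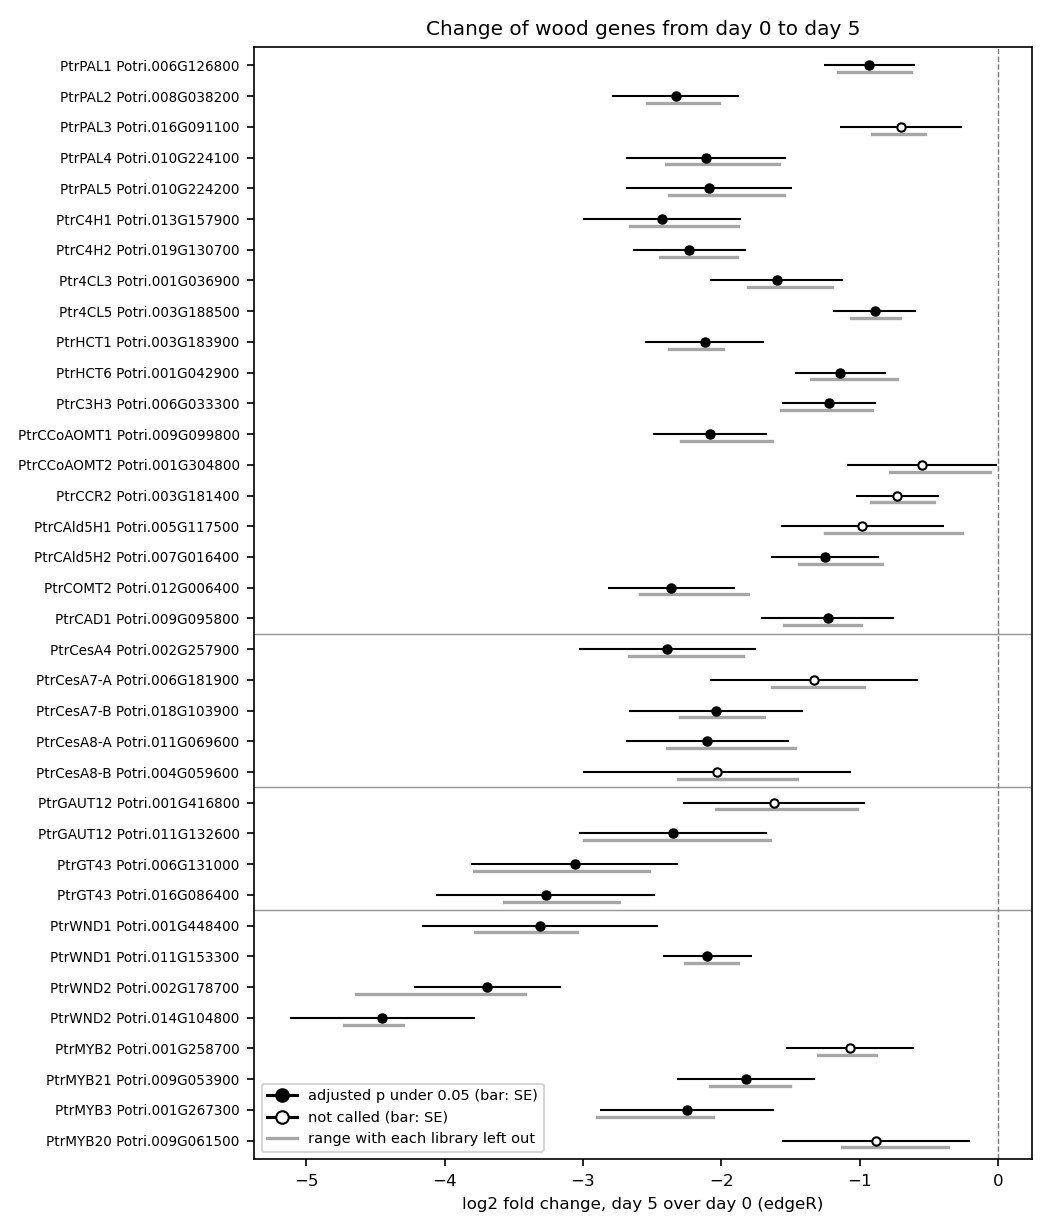
Log2 fold change of day 5 over day 0 from edgeR for the 36 wood genes, with SE bars (filled points: adjusted p under 0.05; open points: not called) and, in grey, the range when each of the 8 libraries is left out in turn. All points lie below 0, from -0.55 for PtrCCoAOMT2 to -4.45 for a PtrWND2 gene.

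Of the 5 cellulose synthase genes of the secondary wall 3 fell and 2 were not called, and in all 5 every day 5 library was below every day 0 library. PtrCesA4 (Potri.002G257900) held 883, 3916, 2099 and 1207 CPM on day 0 and 367, 435, 592 and 148 CPM on day 5. The log2 fold change was -2.39 (edgeR: SE 0.64, adjusted p = 0.00765). PtrCesA7-B (Potri.018G103900) fell by 2.04 on the log2 scale (edgeR: SE 0.63, adjusted p = 0.0163). PtrCesA8-A (Potri.011G069600) fell by 2.10 (edgeR: SE 0.59, adjusted p = 0.00951), and its log2 fold change was -1.47 without day 0 replicate 2.

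The other cellulose synthase genes spread more. PtrCesA8-B (Potri.004G059600) held 564, 2695, 1338 and 851 CPM on day 0 and 262, 517, 480.2 and 78.7 CPM on day 5, so that the libraries of each day differed several-fold. Its log2 fold change of -2.03 (edgeR: SE 0.97, adjusted p = 0.0909) was not called. PtrCesA7-A (Potri.006G181900), with 734 to 1712 CPM on day 0 and 149 to 650 CPM on day 5, was not called either (log2 fold change -1.33, edgeR: SE 0.75, adjusted p = 0.146). Fitted on the 8 libraries alone, without the spread of day 7, they had adjusted p = 0.027 and 0.0344, and DESeq2 called the first (adjusted p = 0.0362). The summed level of the 5 genes on day 5 was 1230.0, 1921, 1932 and 503 CPM, with no library as high as the lowest of day 0.

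Of the 4 xylan synthesis genes 3 fell and 1 was not called. The GT43 genes code for transferases that build the xylan backbone. Potri.016G086400 held 108, 645, 365 and 243 CPM on day 0 and 21.0, 51.3, 49.5 and 19.3 CPM on day 5, or a log2 change of -3.27 (edgeR: SE 0.79, adjusted p = 0.00416). Potri.006G131000 held 77.7, 473, 267 and 171 CPM on day 0 and 12.3, 32.7, 65 and 8.23 CPM on day 5. No day 5 library reached the lowest of day 0 in either gene. The second had a log2 fold change of -3.06 (edgeR: SE 0.75, adjusted p = 0.00439), which was -3.79 without day 5 replicate 3.

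GAUT12 genes, needed for the xylan end structure, overlapped between days. Potri.011G132600 held 14.7, 112, 54.5 and 29.0 CPM on day 0 and 8.01, 8.70, 21.4 and 3.00 CPM on day 5. It fell by 2.35 on the log2 scale (edgeR: SE 0.68, adjusted p = 0.0109), with -1.65 without day 0 replicate 2 and -2.99 without day 5 replicate 3. Potri.001G416800 held 228 to 1264 CPM on day 0 and 75.1 to 357 CPM on day 5. Its log2 fold change of -1.62 (edgeR: SE 0.66, adjusted p = 0.0522) was not called, and was -1.02 without day 0 replicate 2. It was called without day 0 replicate 1, without day 5 replicate 3, with DESeq2, with upper-quartile scaling and with the 8 libraries alone.

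Within a day the enzyme genes ranked the libraries much alike. On day 0 replicates 2 and 3 were among the 2 highest libraries in 24 and 19 of the 24 enzyme genes, and the lowest was replicate 1 in 13 and replicate 4 in 11. On day 5 replicates 2 and 3 were among the 2 highest in 22 and 21 genes, and replicate 4 was the lowest in 15. The highest day 0 library exceeded the lowest by a median of 3.11-fold over the enzyme genes, against 1.55-fold over all tested genes. For the 4 NAC genes this median was 1.6-fold. On day 5 the medians were 2.14-fold for the enzymes, 3.46-fold for the NAC genes and 1.58-fold for all tested genes. What set these libraries apart was not tested.

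Values of severe drought, from libraries taken on day 7 and compared with the same day 0 libraries, stand beside those of day 5 as follows. For the enzyme genes the median change was -1.81 (log2) on day 5 and -3.56 on day 7, and for the xylan genes -2.71 and -5.20. For the 4 NAC genes the medians were -3.50 and -4.43. Potri.011G153300 averaged 38.4 CPM ± 15.0 (SD, n = 4) on day 5 and 53.4 CPM ± 14.7 on day 7, and Potri.014G104800 1.30 CPM ± 0.513 and 1.15 CPM ± 1.07. PtrCCoAOMT2, not called on day 5, averaged 744 CPM ± 165 on day 5 and 90.1 CPM ± 54.4 on day 7.

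Across the whole transcriptome, 58.7% of the tested genes were called on day 5, and the balance of directions shifted with the size of the change. Called genes at least 4-fold higher numbered 2963, against 2191 at least 4-fold lower. At 8-fold or more they were 1982 and 1006, and at 32-fold or more 1027 and 237. The filter keeps genes with enough counts on 1 day alone, so large folds can rest on almost no counts on another. The part of such genes in this shift was not tested. By mean level over all 12 libraries, 47.8% of the 1433 genes under 1 CPM were called and 76.2% of the 42 genes at 1000 CPM or more. Between 100 and 1000 CPM, 43.0% of 1984 genes were higher and 22.9% lower. Between 1 and 10 CPM, 24.3% of 9478 genes were higher and 30.1% lower. The mean includes the drought libraries, so a rise moves a gene to a higher level range and a fall to a lower one. How much of these shares comes from this was not tested.

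**Figure D4:**
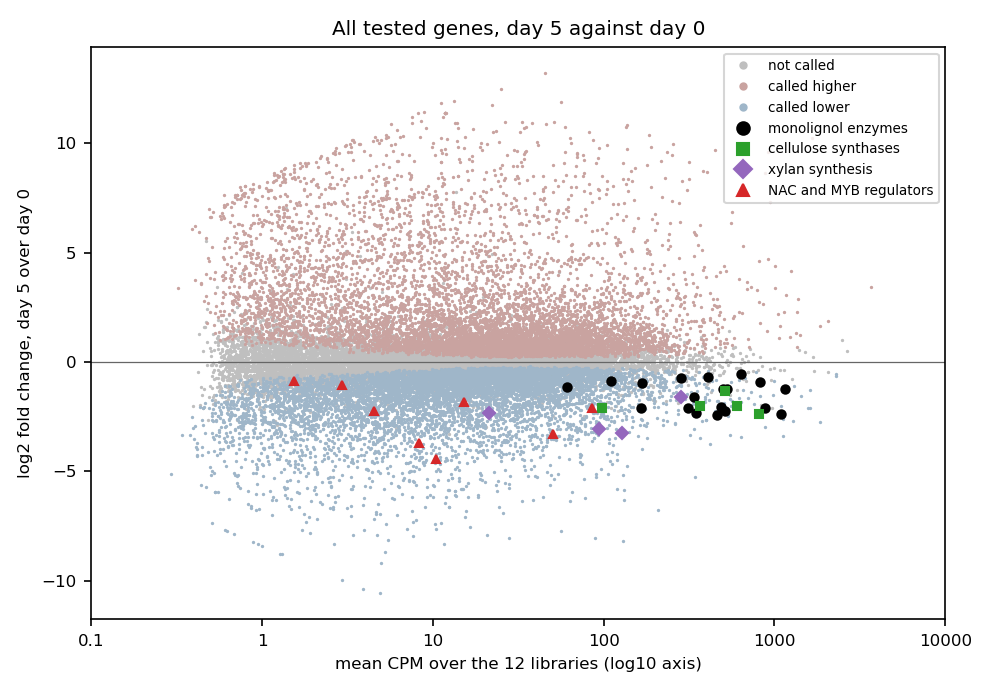
Each small point is a tested gene, placed by its mean CPM over the 12 libraries (log10 axis) and its log2 fold change of day 5 over day 0, and large symbols mark the 36 wood genes. All wood genes lie below 0, with the NAC genes reaching -4.45.

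More genes were detected under mild drought. With each library thinned to the smallest total, 9351583 counts, a count was expected for 30191 genes ± 190.0 (SD, n = 4) on day 0 and for 31380 ± 223 on day 5. Every day 5 library, from 31122 to 31646 genes, exceeded every day 0 library, from 29947 to 30357. The difference of 1188 genes had a two-sided exact permutation p of 0.0286, the smallest that 4 against 4 libraries can give. The 100 genes with most counts took 13.5% ± 2.31 (SD, n = 4) of the day 0 counts and 10.8% ± 0.705 of the day 5 counts, with an exact permutation p of 0.0571.

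**Figure D5:**
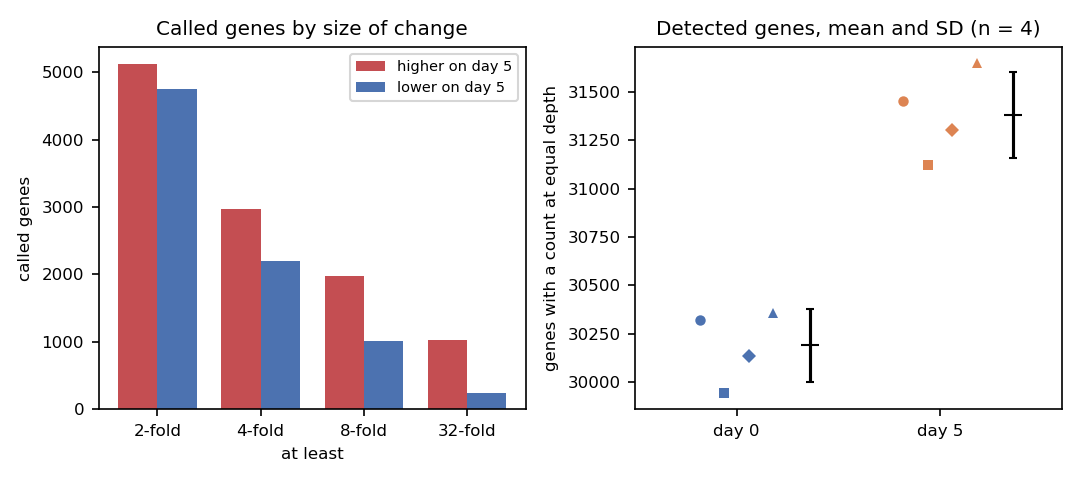
Left, called genes that were higher (red) or lower (blue) on day 5 by at least the given fold, with 1027 higher and 237 lower at 32-fold. Right, genes with a count after thinning to equal depth in each library, with mean and SD (n = 4): the day 5 libraries lie between 31122 and 31646 genes and the day 0 libraries between 29947 and 30357.

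Among genes with at least 100 CPM in the higher group, the largest rises were those of 2 identifiers with almost no counts on day 0. Potri.002G098400 held 0.0959 CPM in day 0 replicate 1, a single count, and none in the other day 0 libraries. On day 5 it stood at 108, 30.0, 124 and 141 CPM (edgeR adjusted p = 3.38e-05). The ratio of pooled counts was 5210.2 (95% Clopper-Pearson interval 935 to 205825, counting error only). Without day 0 replicate 1 no day 0 count was left. With 3 counts put in place of none the ratio was 1409.9, and the lower Clopper-Pearson limit without that replacement was 1146. Potri.005G006800 had 3 counts in all on day 0 and 153, 68.2, 19.1 and 232 CPM on day 5 (edgeR adjusted p = 1.91e-05). Its ratio of pooled counts was 1986 (95% Clopper-Pearson interval 679 to 9635), and its mean on day 7 was 19.1 CPM ± 9.22 (SD, n = 4).

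The largest falls by the same rule belonged to the neighbouring identifiers Potri.013G100700 and Potri.013G100800. The first held 826, 20.1, 19.9 and 391 CPM on day 0 and 2.12, 1.11, 0 and 1.15 CPM on day 5. The second held 593, 11.1, 10.8 and 261 CPM on day 0 and 0.942, 1.11, 0.0623 and 1.23 CPM on day 5. Replicates 1 and 4 of day 0 were high and replicates 2 and 3 low in both, the reverse of the order of the enzyme genes. Log2 fold changes were -8.18 (edgeR: SE 1.83, adjusted p = 0.00263) and -8.03 (edgeR: SE 1.7, adjusted p = 0.00193), and -7.06 and -6.82 without day 0 replicate 1. Neither passed with limma-voom, at adjusted p = 0.0919 and 0.112. Their levels moved in parallel, so reads shared between these genes cannot be told apart from separate transcripts.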

How the data were processed

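The authors deposited 1 table of raw read counts per gene for 12 libraries, with no normalisation, and the submitters' processing notes name TopHat. Not given in the sources used here are the genome build, the counting program and the strand setting, so overlapping, antisense or near-identical genes may share reads. All 12 count columns were used, and groups and replicate numbers came from the titles. Genes were filtered with edgeR 4.0.16 (filterByExpr, minimum count 10), scaled by TMM and fitted by a quasi-likelihood model with 1 mean per day (R 4.3.3). The fit was run on simulated counts in which few genes changed, all upward. That run cannot check scaling or calls under a change as broad as the one here. SE is the size of the log2 fold change divided by √F. Libraries of a day all differed by more than counting noise (chi-square at least 12.21 per degree of freedom).

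The members and lists were chosen with earlier results of these data known. Family names come from published designations, not from the files. Besides the 36 wood genes, the rule named the 2 higher and 2 lower identifiers that changed most on the log2 scale, out of the called genes whose days did not overlap and whose higher day averaged 100 CPM or more. Lists by product name were not analysed here. The alternatives tried were upper-quartile or RLE scaling, a stricter filter of 1 CPM in 4 libraries or none, limma-voom (limma 3.58.1), DESeq2 1.42.0, a minimum fold of 2, the 8 libraries alone, a replicate block and each library left out. Genes detected at equal depth were an expectation over counts, a result added after the data were seen. Intervals cover counting error only. Figures used matplotlib 3.10.9.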

Additional observations from a re-analysis of the deposited data

Results flagged for a closer look

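Dixon's test at the 95% level was run on 82 sets of 4 libraries, and in 7 of them 1 library stood far from its group. Chance gives about 1 in 20 in independent groups, and these share libraries. On day 0, replicate 2 stood high for PtrCAD1 (Potri.009G095800) at 2596 CPM against 1694 to 1844, and for PtrCesA7-A (Potri.006G181900) at 1712 CPM against 734 to 864. On day 5, replicate 3 stood high for the PtrWND2 gene Potri.002G178700 at 4.24 CPM against 0.706 to 1.08. Replicate 2 stood low on day 5 for PtrMYB2 (Potri.001G258700) at 1.51 CPM against 2.85 to 3.05, and high for PtrMYB3 (Potri.001G267300) at 4.42 CPM against 1.31 to 1.49. The remaining 2 rest on single counts on day 0: Potri.002G098400 was at 0.0959 CPM in replicate 1 and at 0 in the others, and Potri.005G006800 was at 0 in replicate 1 and at 0.0645 to 0.069 CPM in the others.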

How the results depend on the processing

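Tested against a minimum fold of 2, 6062 of the 26943 tested genes were called, 3367 higher and 2695 lower. Among those lower were 7 of the 24 wood enzymes, 2 of the 4 xylan genes and 4 of the 8 regulators. Under the other alternatives the counts of called genes stayed within 1.5 times the reported ones, from 14471 to 16724 in all, and between 89.1% and 99.6% of the reported calls were made again in the same direction. With upper-quartile scaling 7354 genes were higher and 8555 lower, and the median log2 fold change of all genes was -0.09. The wood enzymes called lower numbered 14 to 20, with medians from -1.96 to -1.32, the lowest count and smallest median being those without day 0 replicate 2. The xylan median ranged from -3.23 (without day 5 replicate 3) to -2.09 (without day 0 replicate 2). The median of the regulators ranged from -2.58 (without day 5 replicate 2) to -1.98 with single libraries left out. Of 320 values of named genes under the alternatives that keep every library of both days, the minimum fold aside, 300 kept their side of the threshold, 15 passed it newly, 5 no longer did, and none changed sign; with single libraries left out these were 297, 6 and 17 of 320. Without scaling by TMM, 14538 in place of 15012 genes had no overlap between days. Without thinning, 1552 more genes had a count on day 5.

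Same-numbered libraries of day 0 and day 5 deviated together only weakly (r = 0.158, 0.0536, 0.0781 and 0.0739 across genes). Differently numbered ones had r from -0.244 to 0.213, so replicate numbers were not taken as pairs. In most enzyme genes, however, replicates 2 and 3 were among the higher libraries on both days. Whether replicate numbers link libraries for these genes was not tested. With a replicate block 15206 genes were called, 7691 higher and 7515 lower, with 19 wood enzymes and 6 regulators lower. All 4 xylan genes were lower with the block. Of the named genes, those called with the block and not without it were PtrCesA7-A (adjusted p = 0.0376), PtrCesA8-B (0.0256) and the GAUT12 gene Potri.001G416800 (0.0332), and PtrPAL1 was no longer called (0.0709). Day 0 replicate 1 was the shallowest library.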

Other observations

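Genes with adjacent identifiers tended to change alike between day 0 and day 5. Poplar identifiers are numbered along the chromosome, and for tested genes next to each other in this order the log2 fold changes correlated at r = 0.229 across 26002 pairs. With 2, 5, 20 and 100 tested genes of separation r was 0.119, 0.0475, 0.00764 and 0.007. Where both neighbours were called, 62.4% of 9439 pairs had the same direction, against 51.0% of 8368 pairs at 100 genes apart. Pairs share libraries, and neighbours can be tandem copies whose reads were split or counted for each; their part in these values was not tested.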
